A study of Mus musculus with 17 samples.

Results

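The 44 genes described here code for proteins that copy DNA in S phase of the cell cycle. They were taken from the deposited lung expression tables by gene symbol, from a list of names chosen with earlier results of these data known. All 44 were found among the 24327 named genes of each table. By role, 9 load the replicative helicase at origins or govern its loading, and 5 act in or around its activation. Another 11 belong to the polymerases with their clamp and clamp loader or work beside them, and 2 finish the lagging strand. The rest are 4 that supply nucleotides, 6 that copy chromatin, 5 that govern entry into S phase and 2 that repair newly made DNA.

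Bulk RNA-seq of whole mouse lungs gave 17 libraries in 5 genotype groups, from 2 experiments that were deposited as separate tables. The first held 3 libraries with the genotype label control and 3 labelled LysMcre;Nlrp3A350V, called the Nlrp3 mutant. The second held 4 libraries labelled Il18r1 control, 3 labelled LysMcre;Nlrp3A350V;Il181r+/-, called the het mutant, and 4 labelled LysMcre;Nlrp3A350V;Il181r-/-, called the null mutant. NLRP3 is the sensor of an inflammasome, the A350V allele makes it overactive, and LysM-cre is a driver active in myeloid cells; the labels do not say which cells carried the active allele. IL18R1 is the subunit with which the receptor for IL-18 holds its ligand, and by its label the het mutant kept 1 intact copy. The labels do not say which alleles the 2 control groups carry, nor how old the mice were. The series title asks how overactivity of the inflammasome disturbs the building of the gas exchange surface of the lung.

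Before S phase, ORC, CDC6 and CDT1 load the ring-shaped MCM2-7 helicase at replication origins. Kinases, CDC45 and the GINS complex then turn it into a moving helicase, and polymerases α, δ and ε, tethered by the PCNA ring, copy both strands. Many of these genes are transcribed in a wave at the start of S phase under the control of E2F transcription factors, and in tissue their RNA is used as a sign of dividing cells. Such cells are frequent in the growing lung while alveoli form and rarer in the adult.

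Replication genes are textbook targets of E2F factors, so their promoters were searched for E2F letters. Promoter windows from 250 bases before to 50 bases after a transcription start were taken from RefSeq (build GRCm38.p6) and matched by symbol for 38 of the 44 members. The E2F octamers TTTCCCGC, TTTCGCGC, TTTGCCGC and TTTGGCGC were searched on both strands, and matches may overlap. The stretches below show members whose matches lie wholly upstream of the start, 1 strongly changed member without a match, and the single member that passed the test in none of the comparisons. They are written on the strand of the gene, and capitals mark the octamers, which read in reverse complement where they lie on the other strand.
Mcm5, chr8:75109339-75109398, plus strand, 170 to 111 bases before the start: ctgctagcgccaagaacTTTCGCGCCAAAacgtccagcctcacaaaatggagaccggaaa
Mcm6, chr1:128359736-128359825, minus strand, 120 to 31 bases before the start: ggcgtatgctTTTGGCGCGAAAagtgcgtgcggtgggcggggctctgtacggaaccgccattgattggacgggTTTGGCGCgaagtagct
Cdc6, chr11:98907991-98908050, plus strand, 160 to 101 bases before the start: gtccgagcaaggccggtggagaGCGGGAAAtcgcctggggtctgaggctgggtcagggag
Hells, chr19:38930900-38930959, plus strand, 90 to 31 bases before the start: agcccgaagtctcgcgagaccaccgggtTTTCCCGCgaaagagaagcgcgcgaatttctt
Rrm2, chr12:24708104-24708253, plus strand, 150 to 1 bases before the start, without an octamer: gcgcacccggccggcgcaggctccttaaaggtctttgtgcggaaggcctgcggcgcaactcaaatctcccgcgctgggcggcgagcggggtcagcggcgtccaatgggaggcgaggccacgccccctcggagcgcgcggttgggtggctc
E2f2, chr4:136172301-136172323, plus strand, 28 to 50 bases after the start: ggcggcatatagTTTGGCGCtaa

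An octamer was found in the window of 16 of the 38 members (42.1%), against 2.60% of the 27025 genes and 2.26% of the 32851 windows searched. In 9 of the 16 a match lay wholly upstream of the start. The motif CCAAT, searched in the same way, was in the windows of 22 members (57.9%) and of 41.1% of genes. The motifs TTTGAA and TTTAAA were in those of 11 members (28.9%) and of 30.6% of genes. A match is a string of letters and no measured binding site.

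Nlrp3 and Il18r1 were read first as a check of the labels. Nlrp3 lay between 0.973 and 1.39 FPKM (fragments per length of gene and size of library) in the controls of the first experiment and between 2.73 and 3.14 FPKM in the Nlrp3 mutant. In the second experiment Nlrp3 ran from 0.709 to 2.30 FPKM in the controls, from 3.06 to 4.08 in the het and from 3.04 to 4.00 in the null mutant. Il18r1 measured 13.4 to 15.0 FPKM in the Il18r1 controls, 29.9 to 31.2 in the het mutant and 6.98 to 9.00 in the null mutant, so it was lowest in the null libraries but not at 0. These values cover the whole gene, and the labels do not say which stretch was deleted. It was also higher in the Nlrp3 mutant (40.0 to 43.4 FPKM) than in its control (17.9 to 22.2 FPKM). Relative sequencing depth was not given, and was estimated from the commonest ratio of FPKM between libraries among very low genes. Against the first library of its table, this estimate was 0.790 to 1 and 0.753 to 1.15. It is rough, since 9.74% to 17.6% and 3.30% to 10.3% of those values lay at that ratio. Per library, 13147 to 13450 genes reached 1 FPKM. Markers of alveolar type 1 and type 2 cells and of endothelium were high in every group, as the lung label says. Xist, the RNA of the inactive X chromosome, was at 37.7 to 73.0 FPKM in 8 libraries (all Nlrp3 mutant, all het mutant, and null mutant libraries 2 and 4), and the Y-linked gene Ddx3y at 17.8 to 25.3 FPKM in the other 9, against at most 0.0151 FPKM in the 8. Sex and genotype can therefore not be told apart between the controls and the Nlrp3 or het mutants.

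In the Nlrp3 mutant 43 of the 44 replication genes were lower than in the control, none was higher, and the median member stood at 33.5% of its control mean. The calls come from limma on log2(FPKM + 1) with Benjamini-Hochberg adjustment over all 13549 genes tested and a threshold of 0.05, by which 27.6% of all tested genes were lower and 28% higher. The median log2 change of the 44 members was -1.26, against 0.0023 over all genes tested, and 32 members were lower by at least 1 on the log2 scale, a size that 3.79% of tested genes reached. For 43 members every mutant library lay below every control library, as it did for 32% of tested genes. The largest adjusted p among the 43 was 0.00188. Of the 43, Cdc6, Mcm10, Pole, Ccne2, E2f8 and Brca1 were below 1 FPKM in every mutant library. Only their control libraries brought them into the test. In whole tissue, fewer cells in S phase and less of these RNAs in each cell cannot be told apart.

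**Figure D1:**
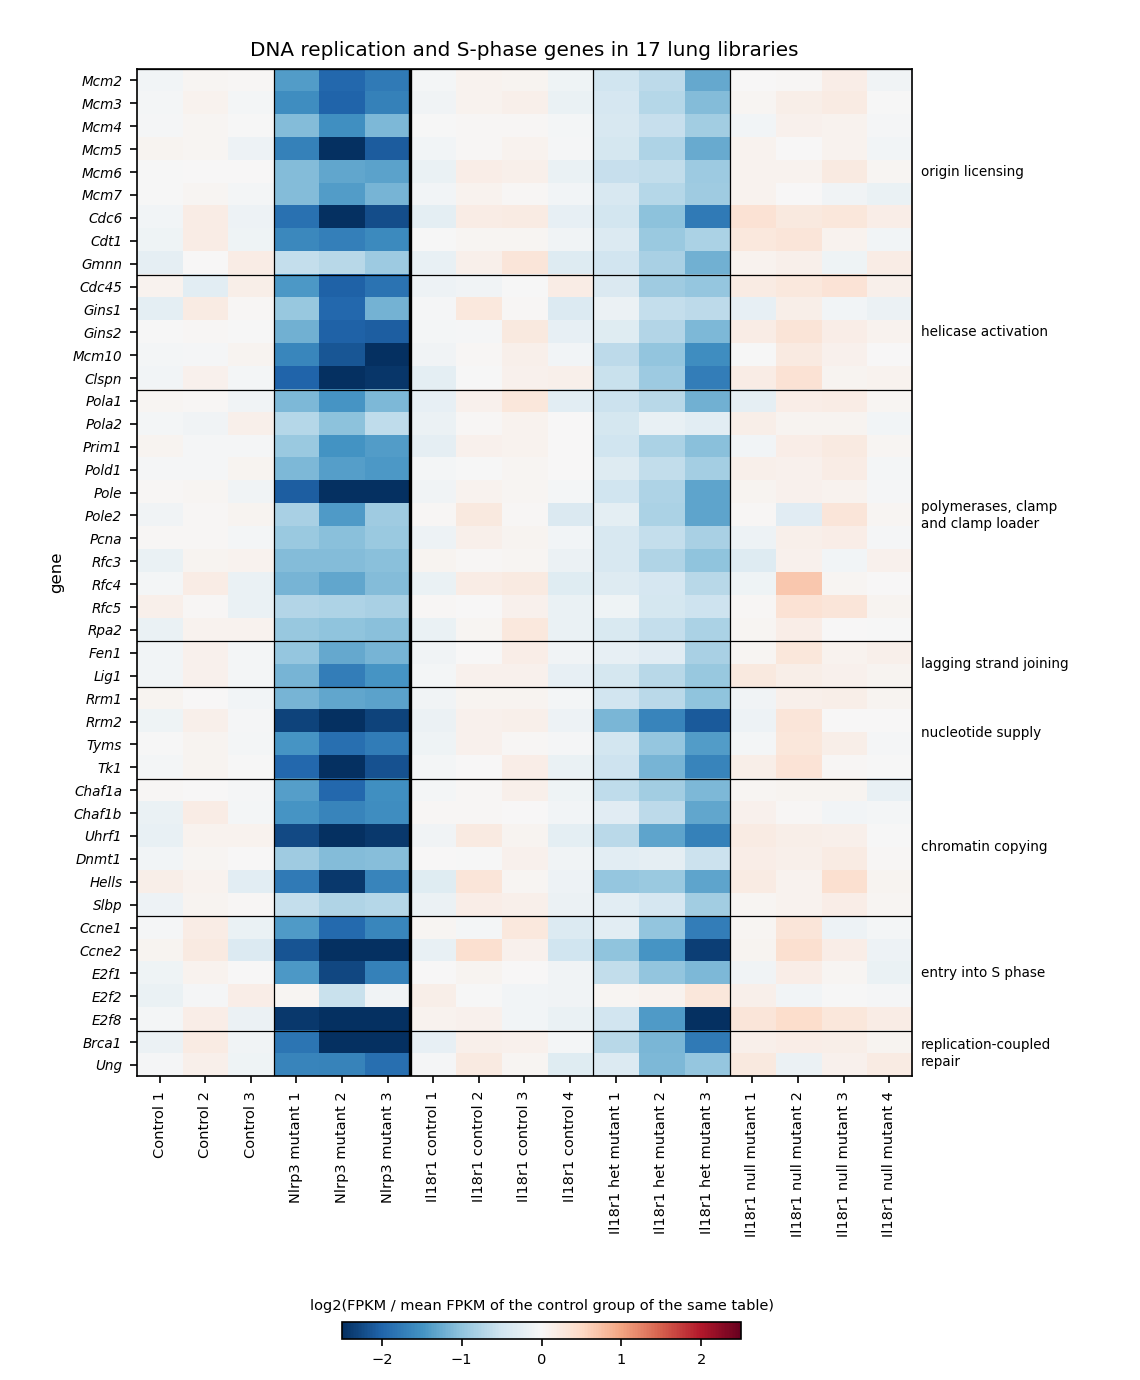
Heat map of the 44 replication genes (rows, grouped by role) in the 17 libraries (columns), coloured by log2 of a library's FPKM over the mean FPKM of the control group of its own table; colours saturate at ±2.5. The 3 Nlrp3 mutant columns are blue in every row except E2f2, the 3 het mutant columns are paler and differ among themselves, and the 4 null mutant columns stay near 0.

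The licensing genes fell together. Mcm3, a subunit of the helicase ring and the most abundant licensing gene, read 32.2, 35.2 and 32.0 FPKM in the controls and 11.3, 8.31 and 10.2 FPKM in the Nlrp3 mutant. Mcm5, another subunit, read 20.8, 20.6 and 18.4 FPKM in the controls and 6.14, 3.25 and 4.71 FPKM in the mutant. For both genes the groups were far apart, with mutant library 2 the lowest. The log2 change was -1.65 ± 0.10 (SE, adjusted p = 1.8e-05) for Mcm3 and -1.91 ± 0.17 (adjusted p = 7.3e-05) for Mcm5, the largest of the 9. All 9 licensing genes passed, with a median of 32.1% of control. Cdc6, the loader ATPase, was at 21.1% of control, below Mcm5 at 23.6%, but is a low gene, whose change that scale understates. Gmnn, which codes for geminin, the inhibitor of CDT1, was the least reduced of the 9 at 60.5%.

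All 5 genes of the helicase activation group passed as well, at a median of 29.8% of control. Gins2, a subunit of the GINS complex, read 14.5, 14.8 and 14.5 FPKM in the controls and 6.40, 3.60 and 3.50 FPKM in the Nlrp3 mutant. The mutant libraries spread more than the controls, yet none came near them. Its log2 change was -1.54 ± 0.18 (SE, adjusted p = 0.000236). Clspn, which codes for claspin, an adaptor of the replication checkpoint, was at 19.2% of control.

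The polymerase, clamp and clamp loader genes were the least reduced of the larger groups, at a median of 47.7% of control, and all 11 passed. Pcna, the sliding clamp and the most abundant of the 44 genes, read 123, 122 and 116 FPKM in the controls and 63.7, 58.1 and 63.1 FPKM in the Nlrp3 mutant. Pole, the catalytic subunit of the leading strand polymerase, read 3.36, 3.43 and 3.11 FPKM against 0.791, 0.540 and 0.573 FPKM. The clamp thus stood near 51.2% of its control mean in tight groups, and the leading strand polymerase at 19.2%. Their log2 changes were -0.96 ± 0.06 (SE, adjusted p = 1.5e-05) and -1.40 ± 0.10 (adjusted p = 2.9e-05), the second understated because Pole is low and 1 FPKM was added before the logarithm. Rfc4, a clamp loader subunit, read 6.22, 7.30 and 5.76 FPKM in the controls and 2.86, 2.61 and 3.02 FPKM in the mutant. Rfc5, another clamp loader subunit, and Pola2, a subunit of the priming polymerase, kept 58.4% and 58.0% of control. Of the lagging strand genes, Fen1, the flap nuclease, read 23.5, 26.6 and 23.6 FPKM in the controls and 12.5, 10.1 and 11.0 FPKM in the mutant. Lig1, the ligase, read 12.3, 14.0 and 12.6 FPKM and 5.82, 3.92 and 4.67 FPKM. Both passed without overlap, at log2 changes of -1.07 ± 0.09 (SE, adjusted p = 4.9e-05) and -1.28 ± 0.12 (adjusted p = 9.1e-05).

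Nucleotide supply was among the most reduced groups, at a median of 26.2% of control over 4 genes that all passed. Tk1, the thymidine salvage kinase of S phase, read 31.9, 34.2 and 32.4 FPKM in the controls and 8.41, 5.24 and 7.28 FPKM in the Nlrp3 mutant. Rrm2, the cell-cycle regulated subunit of ribonucleotide reductase, read 27.0, 32.1 and 28.6 FPKM against 5.89, 4.65 and 5.91 FPKM. The highest mutant library of each gene stood well below its lowest control library. The log2 changes were -2.10 ± 0.14 for Tk1 (SE, adjusted p = 2.1e-05) and -2.22 ± 0.10 for Rrm2 (adjusted p = 5.7e-06). The partner subunit gene Rrm1 was at 41.5% of control, more than that of Rrm2 at 18.8%.

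Among the chromatin copying genes, Uhrf1 had the largest log2 change of all 44 members and Slbp nearly the smallest. Uhrf1, whose protein brings DNA methylation maintenance to new DNA, read 18.1, 21.9 and 22.0 FPKM in the controls and 4.33, 2.58 and 3.89 FPKM in the Nlrp3 mutant. Slbp, which binds the stem-loop of histone mRNAs, read 29.4, 33.7 and 32.8 FPKM against 21.2, 19.0 and 19.4 FPKM. Neither gene's groups overlapped, though Slbp stayed at 62.1% of control and Uhrf1 at 17.4%. The log2 changes were -2.25 ± 0.15 (SE, adjusted p = 2.2e-05) and -0.66 ± 0.07 (adjusted p = 0.000161). Of the repair genes, Brca1 read 2.96, 3.78 and 3.08 FPKM in the controls and 0.922, 0.390 and 0.581 FPKM in the mutant, and Ung, the uracil glycosylase that acts behind the fork, read 5.62, 6.27 and 5.32 against 1.82, 1.82 and 1.56 FPKM. Both passed, and their mutant libraries lay apart from all controls.

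The genes for entry into S phase held both extremes. E2f8, a repressing E2F factor that is itself made in S phase, read 5.06, 5.84 and 4.72 FPKM in the controls and 0.981, 0.685 and 0.908 FPKM in the Nlrp3 mutant, or 16.5% of control, the lowest share of the 44. E2f2, an activating E2F factor, read 16.6, 18.2 and 21.0 FPKM in the controls and 19.3, 12.6 and 17.5 FPKM in the mutant. The E2f8 groups were far apart and the E2f2 groups overlapped. The log2 change of E2f8 was -1.74 ± 0.11 (SE, adjusted p = 1.8e-05). That of E2f2 was -0.18 (95% interval -0.53 to 0.17, adjusted p = 0.335), and it was the member that did not pass. Ccne2, a cyclin that drives the entry kinase, stood at 17.2% of control.

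**Figure D2:**
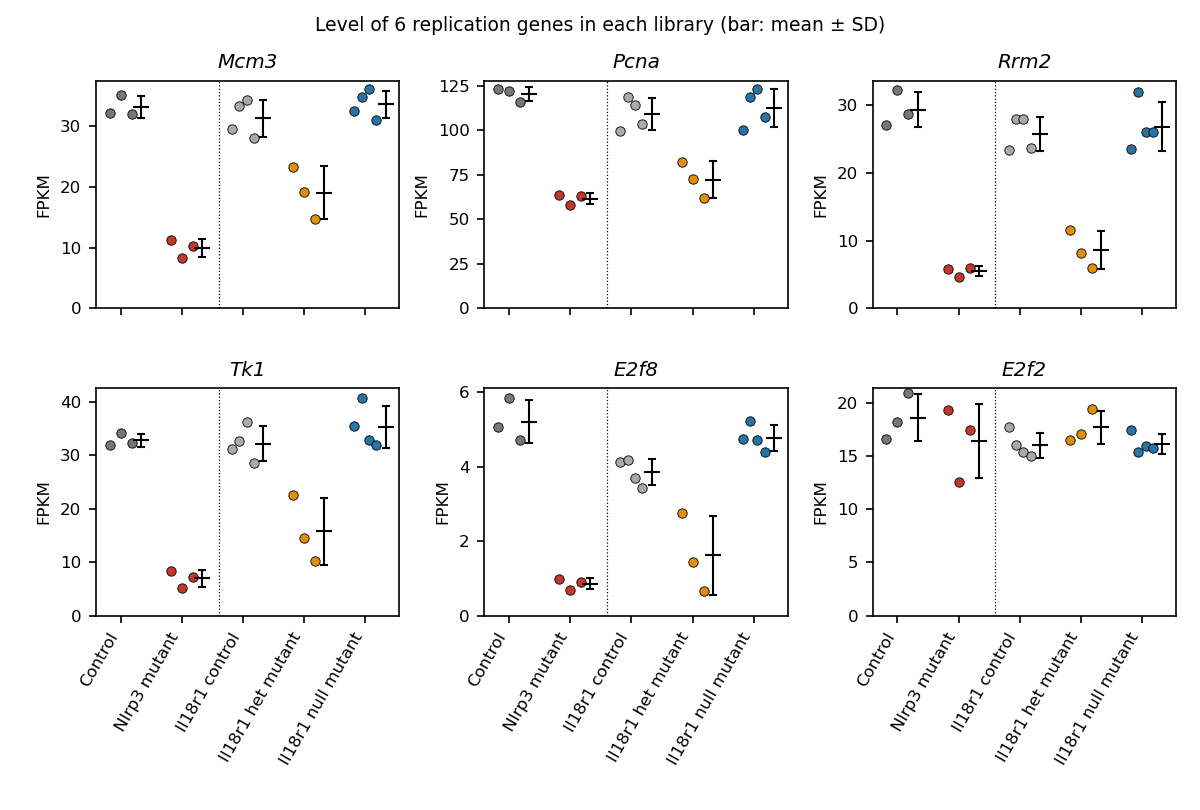
FPKM of Mcm3, Pcna, Rrm2, Tk1, E2f8 and E2f2 in each library (points, by group; bars are the mean ± SD; the dotted line parts the tables, which were normalized separately). For the first 5 genes the Nlrp3 mutant lies below the control and the het mutant below the Il18r1 control without overlap, while the null mutant overlaps its control for Mcm3, Pcna, Rrm2 and Tk1 and lies above it for E2f8; E2f2 overlaps in all groups.

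With 1 intact Il18r1 copy, the mutant lung showed the same direction at a smaller size. In the het mutant 42 of the 44 genes were lower than in the Il18r1 control, where 28.9% of the 13724 tested genes were lower and 27.3% higher, and no member was higher. The median log2 change was -0.65 (all genes tested, -0.017), and the median level 60.9% of control. For 39 members no het library reached any control library, against 29.1% of tested genes, and 4 members (Rrm2, Uhrf1, Tk1 and Ccne2) fell by at least 1 on the log2 scale, as 2.38% of tested genes did. The medians of the role groups ran from 51.6% of control for nucleotide supply to 68.8% for the lagging strand genes.

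Mcm3 read 29.5, 33.4, 34.4 and 28.1 FPKM in the Il18r1 controls and 23.3, 19.1 and 14.7 FPKM in the het mutant. Rrm2 read 23.4, 27.9, 27.9 and 23.7 FPKM against 11.6, 8.19 and 5.98 FPKM. E2f8 read 4.12, 4.17, 3.68 and 3.43 FPKM against 2.76, 1.43 and 0.658 FPKM. In these 3 genes no het library reached a control, and het library 1 was the highest and library 3 the lowest. Their log2 changes were -0.71 ± 0.12 for Mcm3 (SE, adjusted p = 0.000447), -1.51 ± 0.16 for Rrm2 (adjusted p = 1.2e-05) and -0.97 ± 0.20 for E2f8 (adjusted p = 0.00146). Pcna read 99.9, 119, 115 and 104 FPKM in the controls and 82.6, 72.7 and 62.0 FPKM in the het mutant, a log2 change of -0.59 ± 0.10 (SE).

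The other members read in each library of the first experiment moved the same way here. Mcm5 read 17.9, 19.2, 19.9 and 18.4 FPKM in the controls and 13.8, 11.1 and 7.88 FPKM in the het mutant. Gins2 read 14.2, 14.5, 17.4 and 12.9 FPKM against 12.0, 8.87 and 6.73 FPKM. Pole read 2.78, 3.11, 3.05 and 2.85 FPKM against 2.09, 1.73 and 1.18 FPKM. No het library of these 3 reached a control, but het library 1 of Gins2 came within 1 FPKM of the lowest. Fen1 read 20.4, 22.0, 24.3 and 20.4 FPKM in the controls and 18.9, 17.8 and 12.5 FPKM in the het mutant. Lig1 read 10.0, 11.3, 11.2 and 9.07 FPKM against 7.62, 6.46 and 5.36 FPKM. Tk1 read 31.3, 32.6, 36.3 and 28.6 FPKM against 22.7, 14.5 and 10.3 FPKM. None of these overlapped; Fen1 changed least and Tk1 most, with log2 changes of -0.41 ± 0.12 and -1.04 ± 0.19 (SE). Uhrf1 read 15.7, 19.6, 17.6 and 14.1 FPKM in the controls and 10.5, 6.73 and 5.19 FPKM in the het mutant. Slbp read 25.6, 31.8, 31.0 and 25.6 FPKM against 23.7, 21.2 and 15.7 FPKM. Uhrf1 fell by more than Slbp here too, at log2 changes of -1.11 ± 0.17 and -0.49 ± 0.12 (SE). Brca1 read 2.65, 3.30, 3.27 and 2.91 FPKM in the controls and 1.88, 1.38 and 0.889 FPKM in the het mutant. Ung read 4.13, 4.94, 4.39 and 3.43 FPKM against 3.35, 1.95 and 2.16 FPKM. The highest het library of Ung lay just under the lowest control, and those of Brca1 lay farther apart.

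The 2 genes that did not pass differ in kind. Rfc4 read 4.88, 6.21, 6.37 and 4.46 FPKM in the controls and 4.37, 4.12 and 3.37 FPKM in the het mutant, so the highest het library lay just under the lowest control. Its log2 change was -0.38 ± 0.16 (SE, adjusted p = 0.0593), and in the authors' deposited table it was lower (log2 fold change -0.49, adjusted p = 0.00761). E2f2 read 17.7, 16.0, 15.4 and 15.1 FPKM in the controls and 16.6, 17.1 and 19.4 FPKM in the het mutant, with overlap, and its log2 change was 0.13 (95% interval -0.02 to 0.29, adjusted p = 0.127). In the authors' deposited table of this comparison 43 members were lower and none higher, where 22.7% of genes were lower and 23.5% higher. Without het library 3, limma no longer called Gins1 (adjusted p = 0.108), Pole2, a subunit of polymerase ε (0.0669), or Rfc5 (0.0863). Gins1 and Rfc5 also lost their calls without het library 2 (0.0938 and 0.0721) or without Il18r1 control library 3 (0.0534 and 0.0519). Gins1 lost its call without Il18r1 control library 2 as well (0.0746).

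The 3 het libraries were not alike. The median member stood at 73.8% of the control mean in library 1, 59.2% in library 2 and 46.5% in library 3. Library 3 gave the lowest value of the 3 for 40 of the 44 genes and library 1 the highest for 40, while among all tested genes library 3 was lowest for 38.0% and library 1 highest for 37.6%. The Nlrp3 mutant spread less, with median members of 41.2%, 30.3% and 34.4% of control, and its library 2 was lowest for 35 of the 44 genes, against 41.4% of tested genes. Within groups the replication genes varied together. Over all pairs of members the median correlation of deviations from the group means was 0.62 in the first table (6 libraries, 946 pairs) and 0.74 in the second (11 libraries), or 0.50 there without the het libraries; these pairs share their libraries. Over all pairs of tested genes the same medians were 0.01, 0.003 and 0.001. Het library 3 also had the lowest estimated relative depth of its table, 0.753, and the part of depth in this order was not tested.

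The 2 experiments ranked the members alike. The 10 members with the lowest percent of control in the Nlrp3 mutant and the 10 in the het mutant shared 8 genes, Brca1, Ccne2, Cdc6, Clspn, E2f8, Rrm2, Tk1 and Uhrf1. These comparisons share no library. Across the 44 members the percents correlated with r = 0.86 and rho = 0.82, and log2 changes with r = 0.84, close to r = 0.87 over all 13443 genes tested in both tables, so the likeness was not peculiar to replication genes. Of the 44 members, 43 had a lower percent of control in the Nlrp3 mutant, the exception being Gmnn with 60.5% there and 57.8% in the het mutant. The tables were normalized separately and the difference between experiments was not tested.

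**Figure D3:**
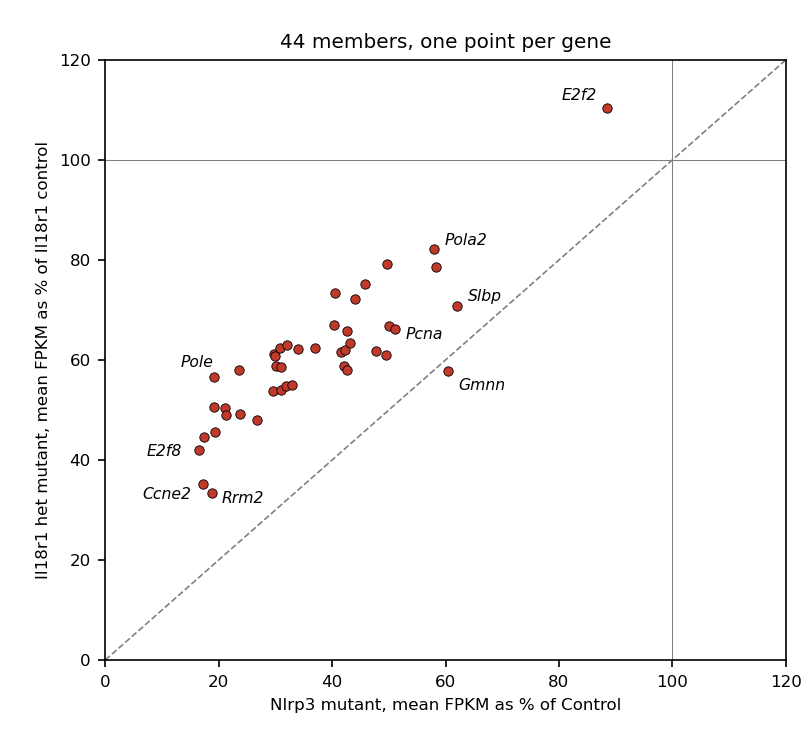
Mean FPKM as a percent of the control mean for each of the 44 genes, in the Nlrp3 mutant (horizontal) and in the het mutant (vertical); the dashed line marks equal percents and the grey lines mark 100%. All points but Gmnn lie above the line, and E2f2 stands alone near 100%.

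Without an intact Il18r1 copy the replication genes stood at the level of the control. In the null mutant 0 of the 44 genes passed against the Il18r1 control with limma, where 1.97% of tested genes did, and 0 had an unadjusted p under 0.05, against 10.3% of tested genes. The median level was 106% of control, with a range from 96.1% to 124%, and the median log2 change was 0.08 (all genes tested, -0.0079), with 0.05 without control library 4 and 0.13 without control library 3. The log2 change was above 0 in 40 of the 44 genes, as it was in 46.3% of tested genes. Over the 44 genes the most extreme ends of the 95% intervals were -0.34 and 0.65, and most intervals were narrower than this span. Each gene's own interval included 0, and a change within it could not be told from none.

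Mcm3 read 32.6, 34.7, 36.0 and 31.0 FPKM in the null mutant and overlapped the controls, with a log2 change of 0.10 (95% interval -0.15 to 0.35). Rrm2 read 23.4, 31.9, 25.9 and 25.9 FPKM, a change of 0.05 (95% interval -0.28 to 0.39). Pcna read 100, 119, 123 and 108 FPKM, a change of 0.04 (95% interval -0.16 to 0.24). E2f8 read 4.74, 5.22, 4.71 and 4.38 FPKM and was the single member whose null libraries all exceeded every control, as 5.06% of tested genes did. Its log2 change was 0.25 (95% interval -0.16 to 0.65, adjusted p = 0.745), and in the authors' deposited table it was higher (0.31, adjusted p = 0.0405), where 3.02% of genes were. The smallest adjusted p with limma was 0.556, for Cdc45, part of the moving helicase.

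In the null mutant, Mcm5 read 20.2, 18.9, 20.0 and 18.0 FPKM, Gins2 16.7, 18.3, 16.4 and 15.7 FPKM, and Pole 3.10, 3.19, 3.12 and 2.91 FPKM. Fen1 read 22.5, 26.4, 23.3 and 23.8 FPKM, Lig1 12.3, 11.5, 11.2 and 10.9 FPKM, and Tk1 35.6, 40.8, 32.9 and 31.9 FPKM. All 6 overlapped the control libraries. Uhrf1 read 19.4, 18.5, 18.4 and 16.7 FPKM, Slbp 29.3, 30.4, 32.1 and 29.6 FPKM, Brca1 3.30, 3.40, 3.34 and 3.17 FPKM, and Ung 4.98, 3.80, 4.58 and 4.85 FPKM. E2f2 read 17.5, 15.4, 15.9 and 15.7 FPKM and Rfc4 5.09, 8.75, 5.69 and 5.51 FPKM. These overlapped their controls as well, with null library 2 of Rfc4 above all others.

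**Figure D4:**
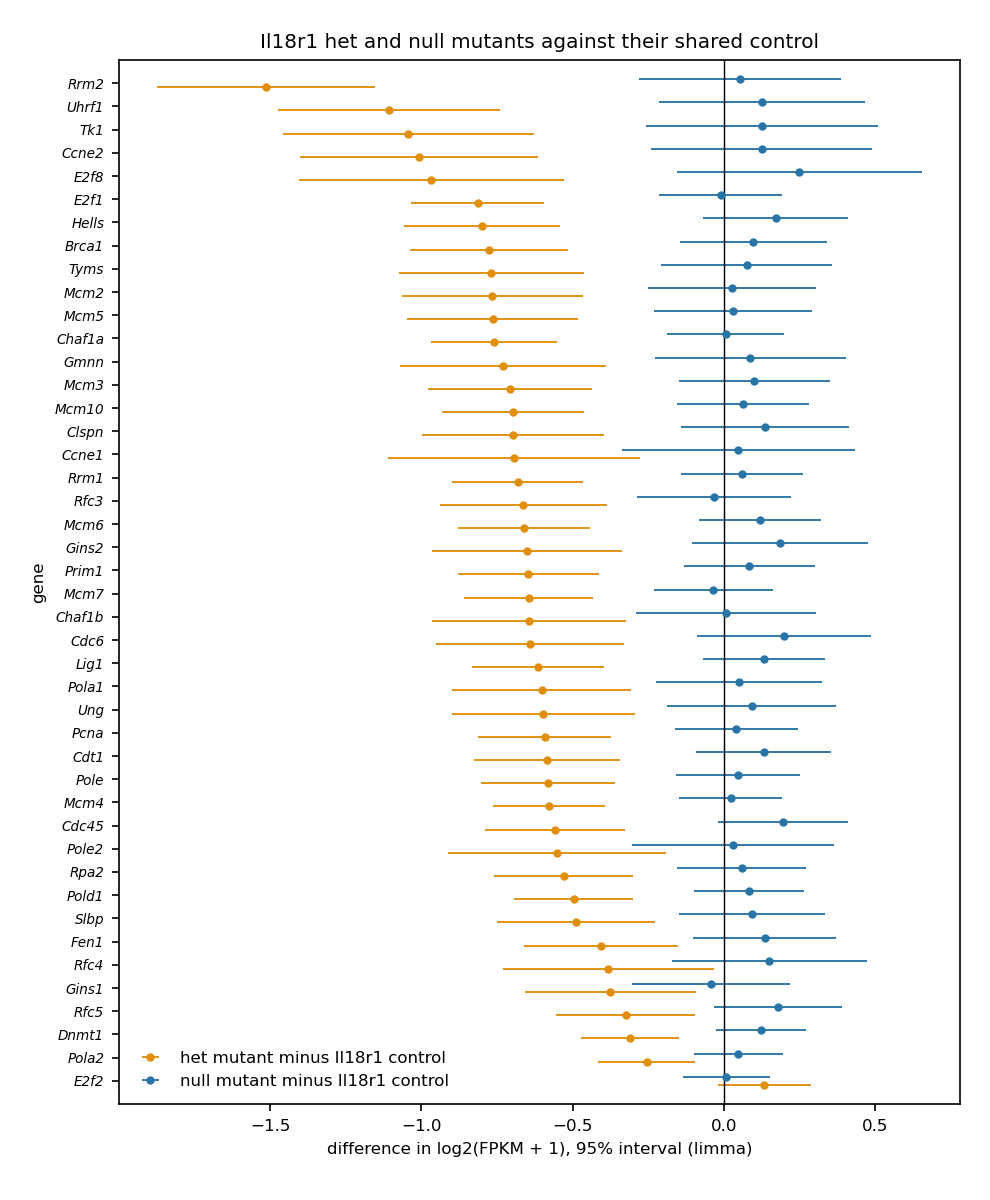
Difference in log2(FPKM + 1) from the Il18r1 control for each of the 44 genes in the het mutant (orange) and the null mutant (blue), with 95% intervals from limma; both share the 4 control libraries. Orange intervals lie left of 0 for all members but E2f2, and every blue interval includes 0.

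Compared directly, 43 of the 44 genes were higher in the null than in the het mutant, where 26.8% of tested genes were higher, and E2f2 was the exception (log2 change -0.13, 95% interval -0.28 to 0.03, adjusted p = 0.155). The median log2 change was 0.74 (all genes tested, 0.0066), or 177% of the het level. For 41 members every null library exceeded every het library, as it did for 26.2% of tested genes. Rrm2 had the largest log2 change, 1.57 ± 0.16 (SE, adjusted p = 1.2e-05), and the other 4 with a rise of at least 1 were Uhrf1, E2f8, Tk1 and Ccne2, a size that 2.13% of tested genes reached. Gins1, the GINS subunit with the weakest call (0.33 ± 0.13, adjusted p = 0.0469), kept its call in 10 of 20 alternatives, and without het library 3 its adjusted p was 0.169. Pole2 and Rfc4 were not called without het library 3 (adjusted p = 0.0522 and 0.0610). The authors' deposited table of this comparison had 43 members higher, where 21.7% of genes were higher.

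Sex was mixed within the null mutant. With the Xist-negative null libraries 1 and 3 alone, which match all controls in sex, 0 members passed against the control, where 1.72% of tested genes did, and the median log2 change was 0.09. With the Xist-positive null libraries 2 and 4 alone, which match all het libraries in sex, 41 members were higher than in the het mutant, where 23% of tested genes were, at a median of 0.73.

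Other genes of DNA replication, 52 in all, followed the members as a set to a smaller degree. In the Nlrp3 mutant 37 of the 51 tested were lower and 3 higher, with a median log2 change of -0.42. Of all tested genes 27.6% were lower there and 28% higher. In the het mutant 37 of 52 were lower and 1 higher, with a median of -0.36, against 28.9% and 27.3% of tested genes. The groups of the list differed. Their medians in the Nlrp3 mutant ran from -0.92 for nucleotide supply to -0.11 for E2F factors and proteins that bind them. Of these last 10 genes, 5 were lower and 2 higher. In the het mutant 6 of 12 other complex subunits and 5 of 10 genes of the last group were not called. In the null mutant 0 of 52 passed against the control with limma (1 at an unadjusted p under 0.05, 0 in the authors' deposited table, median 0.04), and against the het mutant 37 were higher and 2 lower (median 0.37). Of all tested genes 1.97% passed against the control, 10.3% had an unadjusted p under 0.05 there, and 26.8% were higher than in the het mutant. Ccna2, the cyclin of S phase kinases, went from 38.6 ± 4.12 to 7.19 ± 2.20 FPKM in the Nlrp3 mutant (SD, n = 3 each), a log2 change of -2.30. In the other groups of the list the largest falls there were those of Asf1b, a histone chaperone (-1.41), E2f3, an activating E2F factor (-1.15), Dctd, a deaminase of nucleotide supply (-1.10), Gins3, a GINS subunit (-0.87), and Orc1, the cycling subunit of the origin recognition complex (-0.78). E2f3 therefore fell where E2f2 did not pass, and in the het mutant the log2 change of E2f3 was -1.14. Those higher in the Nlrp3 mutant were Pold4, a small subunit of polymerase δ (0.40), Tfdp2, a partner of E2F factors (0.28), and Rbl2, a pocket protein that holds E2F genes silent in resting cells (0.27). Shmt1, an enzyme of one-carbon supply for thymidylate, was the 1 higher in the het mutant, at 4.17, 4.10 and 4.06 FPKM against 3.02, 3.34, 3.54 and 3.58 FPKM in its control (log2 change 0.23). The 2 lower in the null than in the het mutant were Rbl2 (-0.27) and Shmt1 (-0.18).

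Genes of mitosis, which act after replication, moved with the members. All 16 listed, among them Mki67 and Top2a, were lower in the Nlrp3 mutant (median log2 change -1.96) and in the het mutant (-1.13). Of all tested genes 27.6% and 28.9% were lower there. In the null mutant 0 of 16 passed against the control with limma (0 at an unadjusted p under 0.05, median 0.15), and all 16 were higher than in the het mutant (1.26). The shares of all tested genes were 1.97% passing against the control, 10.3% at an unadjusted p under 0.05, and 26.8% higher than in the het mutant. Outside all lists, genes whose log2 values over the 11 libraries of the second experiment were among the most like the members' mean were 2810417H13Rik, Dtl, Fignl1 and Atad2, with r from 0.992 to 0.995. E2f2 had r = -0.71 with that mean, and the next lowest member, Pola2, 0.75.

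Members with and without a promoter octamer covered overlapping ranges of change. The 16 members with an E2F octamer stood at a median of 38.7% of control in the Nlrp3 mutant (17.4% to 88.5%), and the 22 with a window but no octamer at 32.5% (16.5% to 62.1%). E2f2 has an octamer after its start, at 40 to 47 bases, and Rrm2 and E2f8 have none in their windows. The members lie on 16 chromosomes, with at most 7 on one of them, chromosome 5. In RefSeq coordinates of GRCm38.p6, Rrm2 runs on chromosome 12 from 24708254 to 24714146, E2f8 on chromosome 7 from 48866429 to 48882073, Uhrf1 on chromosome 17 from 56303337 to 56323486, Pcna on chromosome 2 from 132249286 to 132253180 and E2f2 on chromosome 4 from 136172274 to 136196057.

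Markers of several cell types changed too, some in the direction of the replication genes and some in the opposite one. Of all tested genes 27.6% were lower and 28% higher in the Nlrp3 mutant, and 28.9% and 27.3% in the het mutant. In the null mutant 1.97% passed against the control and 10.3% had an unadjusted p under 0.05. All 8 neutrophil markers were higher in the Nlrp3 mutant (sum 9278 to 14921 FPKM, control 358 to 1278) and in the het mutant (9954 to 19177, control 204 to 306). They were also higher in the null mutant, 8 of 8, with a sum of 2112 to 2901 FPKM, where the replication genes stood near the control level. Macrophage markers were higher for 5 of 8 in the Nlrp3 mutant (404 to 468 against 169 to 193 FPKM), 8 of 8 in the het mutant (593 to 757 against 188 to 207) and 2 of 8 in the null mutant (227 to 309). Myofibroblast and smooth muscle markers were lower for 6 of 8 in the Nlrp3 mutant (500 to 532 against 966 to 1071 FPKM) and 7 of 8 in the het mutant (490 to 547 against 1046 to 1104), and for 0 of 8 in the null mutant (969 to 1127; 0 at an unadjusted p under 0.05). B cell markers were lower for 4 of 4 tested in both mutants (7.67 to 8.01 against 21.5 to 29.4 FPKM, and 6.56 to 8.33 against 32.8 to 44.6), and for 1 of 4 in the null mutant (20.2 to 30.2). Erythroid markers were lower for 4 of 5 tested and 5 of 5 (540 to 1429 against 3040 to 3526 FPKM, and 1604 to 1855 against 2732 to 4962), and for 1 of 5 in the null mutant (2025 to 2736). In the null mutant the unadjusted p was under 0.05 for 7 of 8 macrophage, 4 of 4 B cell and 2 of 5 erythroid markers. The median log2 changes of these lists there were 0.38, -0.50 and -0.67. Granulocyte precursor markers were higher for 3 of 4 tested in the Nlrp3 mutant (480 to 1132 against 48.3 to 183 FPKM), 5 of 5 in the het mutant (1274 to 2338 against 36.8 to 64.7) and 4 of 5 in the null mutant (158 to 289).

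Alveolar and other markers moved too. The shares of all tested genes are again 27.6% lower and 28% higher in the Nlrp3 mutant, and 28.9% and 27.3% in the het mutant. For the null mutant they are 1.97% passing and 10.3% at an unadjusted p under 0.05. Alveolar type 2 markers were higher for 7 of 8 in the Nlrp3 mutant (25382 to 32579 against 19137 to 20786 FPKM) and in the het mutant (22051 to 22608 against 15433 to 16293), and for 0 of 8 in the null mutant (13760 to 17707; 1 at an unadjusted p under 0.05). Alveolar type 1 markers were higher for 6 of 7 in both (2673 to 2784 against 1827 to 2039 FPKM, and 2531 to 2908 against 1947 to 2088, where 1 was lower), and for 0 of 7 in the null mutant (1757 to 1925; 1 at an unadjusted p under 0.05). Endothelial markers were lower for 5 of 8 and 4 of 8 (1141 to 1153 against 1368 to 1431 FPKM, and 1309 to 1391 against 1528 to 1847), and for 0 of 8 in the null mutant (1371 to 1664; 1 at an unadjusted p under 0.05). T cell markers were lower for 3 of 3 tested and 4 of 5 (3.60 to 5.75 against 8.92 to 13.9 FPKM, and 3.63 to 7.31 against 11.8 to 14.9), and for 0 of 5 in the null mutant (9.95 to 11.8; 1 at an unadjusted p under 0.05). No marker found in the tables for these 10 lists was at 0 in every library of a group. The part of these cell types in the change of the replication genes was not tested.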

How the data were processed

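RNA-seq of whole mouse lung was analysed from deposited tables. Per the labels' protocols, tissue was homogenised, RNA purified with an RNeasy kit, and stranded mRNA libraries read as paired ends on an Illumina NovaSeq. Per the submitters' processing notes, STAR and the build GRCm38 (mm10) were used; the counting tool, the annotation and any scaling between libraries are not given in the sources used here, nor how reads shared by near-identical gene copies were treated. The authors deposited FPKM per gene in 2 tables; the headers name no unit, and FPKM was inferred from the values. In each of them 27 of 24354 lines with a gene name turned into a date were left out. For the second experiment the authors deposited 3 comparison tables in the form DESeq2 writes, whose columns, per the file headers, are the mean signal (normalized counts), the log2 fold change and its error, a test score and the p-values. Their direction was checked on the FPKM: it was the same in 7676 of 7683, 267 of 267 and 7274 of 7280 genes that limma called.

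The test was limma 3.58.1 in R 4.3.3, with a trend of the variance on the mean, applied to log2(FPKM + 1) of genes that reached 1 FPKM in 3 libraries or more, each table on its own, all 3 groups of the second table together, with Benjamini-Hochberg adjustment over all genes tested and a threshold of 0.05. All 44 members passed this filter in both tables. In the first, Cdc6, Mcm10, Pole, Ccne2, E2f8 and Brca1 passed it only through the 3 control libraries, where they are higher. The scale understates the change of low genes. FPKM carry no counts, so no counting interval was made; in the authors' deposited tables the members' mean normalized counts ran from 186 to 5235. Since no label says that samples are separate animals, the p-values speak only of the spread between samples, which may be technical. No 2 libraries held identical values. The script was tested on simulated data. Replicate numbers showed no clear pairing of the samples (correlations of same-numbered deviations -0.08 to 0.11 and -0.10 to 0.27). Those of other pairs ran from -0.12 to 0.09 and from -0.21 to 0.26. With so few libraries in a group these values cannot exclude a pairing.

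The members and gene lists were chosen with earlier results of these data known. Values in every library are given for the most abundant and the most changed member of each role and for members whose call differed from most. Of the other replication genes, the most changed of each group and those that moved against the majority are named. Most changed means the largest change in log2(FPKM + 1), which can pass over low genes with a lower percent of control. Of the genes most like the members' mean, 1 is not reported here. Rfc5, Pola2, Rrm1, Gmnn, Cdc6, Clspn and Ccne2 were added after their values were seen. Alternatives were another pseudocount, other filters, a replicate block, robust and group-only fits, single libraries left out and the authors' tables. Python 3.11.15, pandas 2.3.3 and matplotlib 3.10.9 were used.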

Additional observations from a re-analysis of the deposited data

Results flagged for a closer look

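In 4 of the 88 groups of 4 libraries examined (44 genes in the Il18r1 control and the null mutant), 1 library stood apart from the other 3 by Dixon's criterion, which chance flags in about 1 of 20 groups. Rfc3, a clamp loader subunit, was at 15.3 FPKM in Il18r1 control library 4 and at 17.5 to 17.8 FPKM in the others. Mcm6, a helicase subunit, was at 34.6 FPKM in null mutant library 3 and at 30.7 to 31.3 FPKM in the others. Rfc4, another clamp loader subunit, was at 8.75 FPKM in null mutant library 2 and at 5.09 to 5.69 FPKM in the others. Chaf1a, a subunit of the chromatin assembly factor, was at 8.19 FPKM in null mutant library 4 and at 9.63 to 9.75 FPKM in the others.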

How the results depend on the processing

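No called result changed direction under any alternative run. Of the 44 members, 17 changed sign under some alternative in null against control, where none was called with limma (Rrm2 -0.05 to 0.11, Pcna -0.004 to 0.09 on the log2 scale), and 0 did in the other 3 comparisons. In the Nlrp3 mutant the median log2 change of the members was -1.55 with a pseudocount of 0.1, and 27 members were lower when a mean of at least 5 FPKM was required, which leaves fewer genes to test. Leaving out single libraries gave 37 to 43 members lower there, every member still tested being called as before, 39 to 43 lower and 0 to 1 higher in the het mutant (E2f2, without Il18r1 control replicate 1), and 40 to 43 higher in null against het. The median in the het mutant ran from -0.78 without het replicate 1 to -0.52 without het replicate 3, and that in null against control from 0.05 to 0.13. In null against control the authors' deposited table had 1 member higher (E2f8). Among the other replication genes, those higher in the Nlrp3 mutant numbered 1 to 4 with single libraries left out, 1 without Control replicate 2 or Nlrp3 mutant replicate 3. Those higher in the het mutant numbered 0 with a mean of at least 5 FPKM or in the authors' deposited table. In null against control 1 was lower with a robust fit and array weights. In null against het 1 was lower with that fit, a mean of at least 5 FPKM, a fit of only these groups or the authors' deposited table, and 0 to 3 with single libraries left out (0 without het replicate 3). The causes were not tested. With the replicate number as a block, 43 members were lower in the Nlrp3 mutant, 43 in the het mutant (Rfc4 joined, adjusted p = 0.0252), 0 in null against control, and 43 were higher in null against het. Of the single members, 494 of 494 calls held across alternatives in the Nlrp3 mutant, 809 of 823 in the het mutant, 866 of 867 in null against control and 854 of 867 in null against het. The calls that varied were those of Gins1, Pole2, Rfc4, Rfc5, E2f2 and E2f8. Expression in FPKM without counts limits what can be said of the precision of low genes such as Pole and Brca1.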
